A study of Arabidopsis thaliana with 18 samples.

Results

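The MYB transcription factors described here were 163 of the 22810 probe sets of an Affymetrix Arabidopsis array. A probe set is the group of short probes that measures a transcript. The members were chosen by the short text that the array files give for each probe set, which had to hold the word myb or the name of a MYB protein. Of 165 texts with the letters myb, 164 met this rule, and 1 of these, described as a target of myb1, was set apart because it names another protein. The rule itself used no signal, but it was chosen with earlier results of these data known. The texts are an old automatic annotation, so MYB genes described in other words are not among the members. Of the 163, 106 were called Present, the array's own call that a transcript was detected, on both arrays of at least 1 group. These 106 were tested, among 17379 tested probe sets on the whole array.

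MYB proteins bind DNA through repeats of a helix-turn-helix domain. Plants carry a large family of them with several repeats (R2R3 type), which act on phenylpropanoid and glucosinolate synthesis, the cuticle, cell walls, hair cells and responses to drought and abscisic acid. Members with a single or partial repeat include the clock protein CCA1 and the small proteins CPC and TRY, which hold back trichome fate. In seedlings, the family is known for responses to dehydration and salt.

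The RNA came from whole seedlings of Arabidopsis thaliana, 7 days old, raised at 22 °C on 0.5X MS medium with 1% sucrose. The 3 genotypes were HSFA6b-OE (here OE), which overexpresses the heat shock factor HSFA6b, HSFA6b-RD (here RD), a dominant-negative line of the same factor, and wild type Col-0 (WT). Each genotype was exposed to 37 °C for 1 h (heat shock), to 150 mM NaCl for 6 h, or kept at 22 °C as a control, and each of the 9 groups had 2 arrays, which the design calls independent biological replicates. The sources used here give neither the promoter behind the overexpression nor the number of lines. HSFA6b itself had no named probe set, and its level was not analysed here. Arrays are named by genotype, treatment and replicate number. Whole seedlings mix cell types, so fewer cells of a type and less RNA per cell cannot be told apart.

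The arrays called 63.32% to 73.59% of all probe sets Present, and 77 to 100 of the 163 MYB probe sets. HSP101, a heat shock chaperone, had signals of 25588 to 43144 on the heat shock arrays and of 8030.3 to 16921 on the NaCl arrays, against 9.8 to 83.8 on the control arrays. Of 4 root markers, 2 were found on the array, the root hair expansin EXPA7 and the root regulator SHR. Their summed signal lay between 107 and 279 on the heat shock arrays and between 12.7 and 81.2 on the NaCl arrays, where neither was Present, against 250 to 409 on the control arrays. Under heat shock in WT the 2 did not move alike. EXPA7 had 243 and 201 against 125 and 220 under control, and SHR had 35.9 and 33.2 against 157 and 189. In OE both were lower under heat shock than under control. The leaf markers RCA and LHCB3 were Present on all 18 arrays. LHCB3 differed between NaCl replicates, with 25931 and 7486 in OE, 27122 and 11097 in RD and 23849 and 6429 in WT. On the control arrays it had 24515.5 to 33090. RCA had 23413 to 42500 on the NaCl arrays and 28091.5 to 42550 on the control arrays. The arrays WT heat 1, WT NaCl 1 and OE NaCl 1 carry a second array series number in their file headers. The groups WT heat and WT NaCl had the lowest correlations between their 2 arrays, 0.917 and 0.916 across probe sets, against 0.934 to 0.973 in the other groups.

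Of the 163 MYB probe sets, 52 were Present on all 18 arrays and 37 on none. The number Present on both arrays of a group ran from 69 (WT heat) to 81 (OE heat) under heat shock and from 76 (WT) to 80 (OE) under NaCl, against 75 (RD) to 95 (OE) under control. All 5 probe sets grouped here with regulators of secondary cell walls, by the names in their texts, stayed untested. These are MYB46, Atmyb103, myb26, and probe sets described as like Atmyb103 and like pea myb26, and their highest signal on any array was 98.6. Just outside the Present rule lay 3 probe sets with 3 Present arrays each, among them Atmyb2, a regulator known for dehydration and abscisic acid responses. Atmyb2 had signals of 91.2 and 107 in OE, 112 and 128 in RD and 77.5 and 176 in WT under NaCl, with 1 Present array in each genotype, against 33.4 and 37.0 in OE, 46.3 and 27.8 in RD and 18.8 and 48.1 in WT under control, with none. Its signals were higher on every NaCl array than on any control array, but it was not tested. Just inside lay 3 probe sets with 3 Present arrays, MYB27, 255903_at and AT1G01150.

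NaCl against control asked which MYB genes respond to salt within 6 h. More MYB probe sets rose than fell in each genotype. Called, that is at an adjusted p under 0.05 in limma's fit over all tested probe sets, were 22 higher and 6 lower of 106 in OE, 26 and 7 in RD, and 21 and 12 in WT. That is 26.4% of the MYB probe sets in OE, 31.1% in RD and 31.1% in WT, against 26.4%, 31.5% and 30.3% of all tested probe sets, so the share that changed was close to the background. By direction, 20.8% of the MYB probe sets were called higher in OE, 24.5% in RD and 19.8% in WT, against 11.5%, 12% and 12% of all tested probe sets. Called lower were 5.66%, 6.6% and 11.3% of the MYB probe sets, against 15%, 19.5% and 18.3% of all. The median log2 difference of the MYB probe sets was 0.17 in OE, 0.35 in RD and 0.20 in WT, against -0.13, -0.22 and -0.19 over all tested probe sets. Called higher in all 3 genotypes were 12 MYB probe sets (7.92% of all tested probe sets were), and called lower in all 3 were 3 (10.3% of all). Several fits with an array fewer gave clearly lower counts, and the fit without WT NaCl 1 gave 37 in WT, against 33 with all arrays. In OE and RD the counts were 17 without OE control 1, 15 without OE control 2 and 13 without OE NaCl 2, and 20 without RD control 1. In WT, 17 were called when WT control 2 was left out, 21 when WT control 1 was and 20 when WT NaCl 2 was.

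**Figure D1:**
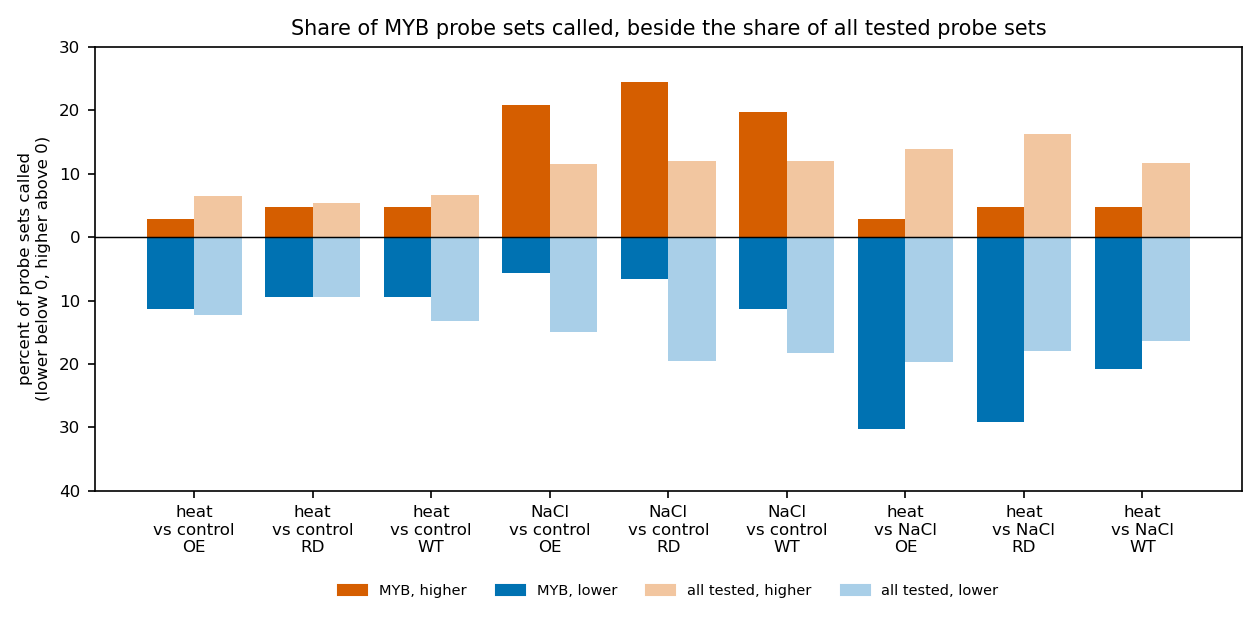
Percent of the 106 tested MYB probe sets (dark bars) and of all 17379 tested probe sets (pale bars) called higher (orange, above 0) or lower (blue, below 0) at an adjusted p under 0.05, for 9 treatment comparisons. Under NaCl the MYB bars for higher exceed those of all probe sets in each genotype, and in heat shock against NaCl the MYB bars for lower do.

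Among the steepest rises was that of the probe set described as MYB96-like (247455_at), which was Present on all 18 arrays. MYB96 promotes cuticular wax synthesis under drought. Its signals were 2077 and 3166 in OE, 2397 and 2842 in RD and 1749.9 and 2664 in WT under NaCl, against 186 and 163 in OE, 206 and 199.8 in RD and 194 and 187 in WT under control. The lowest NaCl array was far above the highest control array. The log2 difference was 3.88 ± 0.28 (adjusted p = 9.15e-07) in OE, 3.69 ± 0.28 (1.28e-06) in RD and 3.50 ± 0.28 (1.97e-06) in WT. A probe set described as like Cpm7 (258516_at), a MYB of the resurrection plant Craterostigma plantagineum known to respond to dehydration, had signals of 321 and 666 in OE, 298 and 853 in RD and 317 and 495 in WT under NaCl, against 23.4 and 16.6 in OE, 54.3 and 36.8 in RD and 32.2 and 17.7 in WT under control. It was Present on all 6 NaCl arrays and on no other array. It was at least 23.5-fold higher in OE (adjusted p = 3.57e-05), 11.3-fold in RD (2.47e-04) and 16.6-fold in WT (8.85e-05). Such a bound compares the mean of the NaCl arrays with a floor on each control array. The floor is the lowest signal called Present there, or the probe set's own signal if higher. For this probe set the bounds equal the fitted folds, with a standard error of 0.5 on the log2 scale. Here and below, at least refers to the detection level alone and does not allow for the spread between arrays. Fits with an array fewer gave smaller differences for some probe sets. A probe set described as like a tomato MYB (257919_at) was likewise Present on the 6 NaCl arrays alone, with 282 and 135 in OE, 387 and 231 in RD and 375 and 115 in WT against 1.5 and 2.2 in OE, 2.2 and 3.4 in RD and 1.6 and 3 in WT under control. It was at least 24.6-fold higher in OE (adjusted p = 3.81e-04), 35.1-fold in RD (2.95e-04) and 26.1-fold in WT (4.01e-04). None of the 9 calls of these 3 probe sets was lost under any alternative. The Cpm7-like and tomato MYB-like probe sets passed the Present rule through their NaCl groups alone. Their entry into the test, and into the counts of members called higher, thus depended on the same high NaCl signals.

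Members tied to the cuticle and to drought did not all move alike. Of the 3 tested probe sets of the cuticle group, which include the MYB96-like one above, 3 were called higher in OE, 2 in RD and 2 in WT, where 11.5%, 12% and 12% of all tested probe sets were. MYB94, which acts with MYB96 on wax genes, had 427 and 478 in OE, 169 and 163 in RD and 340.4 and 377 in WT under NaCl, against 235 and 229.5 in OE, 249 and 194 in RD and 211 and 209 in WT under control. Its signals rose in OE and WT and lay below the controls in RD, with log2 differences of 0.96 ± 0.25 (adjusted p = 0.0134) in OE, -0.40 ± 0.25 (0.242) in RD and 0.77 ± 0.25 (0.0334) in WT. The difference between the NaCl response of RD and that of WT was -1.18 ± 0.36 for MYB94, which did not pass the test (adjusted p = 1). A probe set described as like MIXTA (261431_at), a snapdragon regulator of conical petal cells, had log2 differences of 1.65 ± 0.44 (adjusted p = 0.015) in OE, 1.83 ± 0.44 (0.00724) in RD and 1.15 ± 0.44 (0.0641) in WT. Of 5 probe sets in the dehydration group, 3 were tested. The one like cpm10 (259618_at), named for another Craterostigma MYB, was at least 4.24-fold higher in RD (adjusted p = 0.0404), and at 1.62 ± 0.72 (adjusted p = 0.112) in OE and 1.60 ± 0.72 (adjusted p = 0.107) in WT it was not. Its call was lost without RD NaCl 1, RD control 2 or RD NaCl 2. Its log2 difference in RD was 3.28 without RD control 1 and 0.89 without RD control 2, against 2.08 with all arrays. With 16 added to each signal it was 1.32. MYB41, known from cuticle and osmotic stress studies, was Present on no NaCl array and differed by 0.13 ± 0.80 (adjusted p = 0.922) in OE, -1.82 ± 0.80 (adjusted p = 0.0976) in RD and -0.27 ± 0.80 (adjusted p = 0.826) in WT, past no threshold. Of 7 wax genes on a list, 2 were found and 1 tested. This was CUT1, a very-long-chain fatty acid elongase needed for wax, with 0.01 ± 0.32 (adjusted p = 0.983) in OE, 0.93 ± 0.32 (0.0418) in RD and 0.36 ± 0.32 (0.432) in WT.

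**Figure D2:**
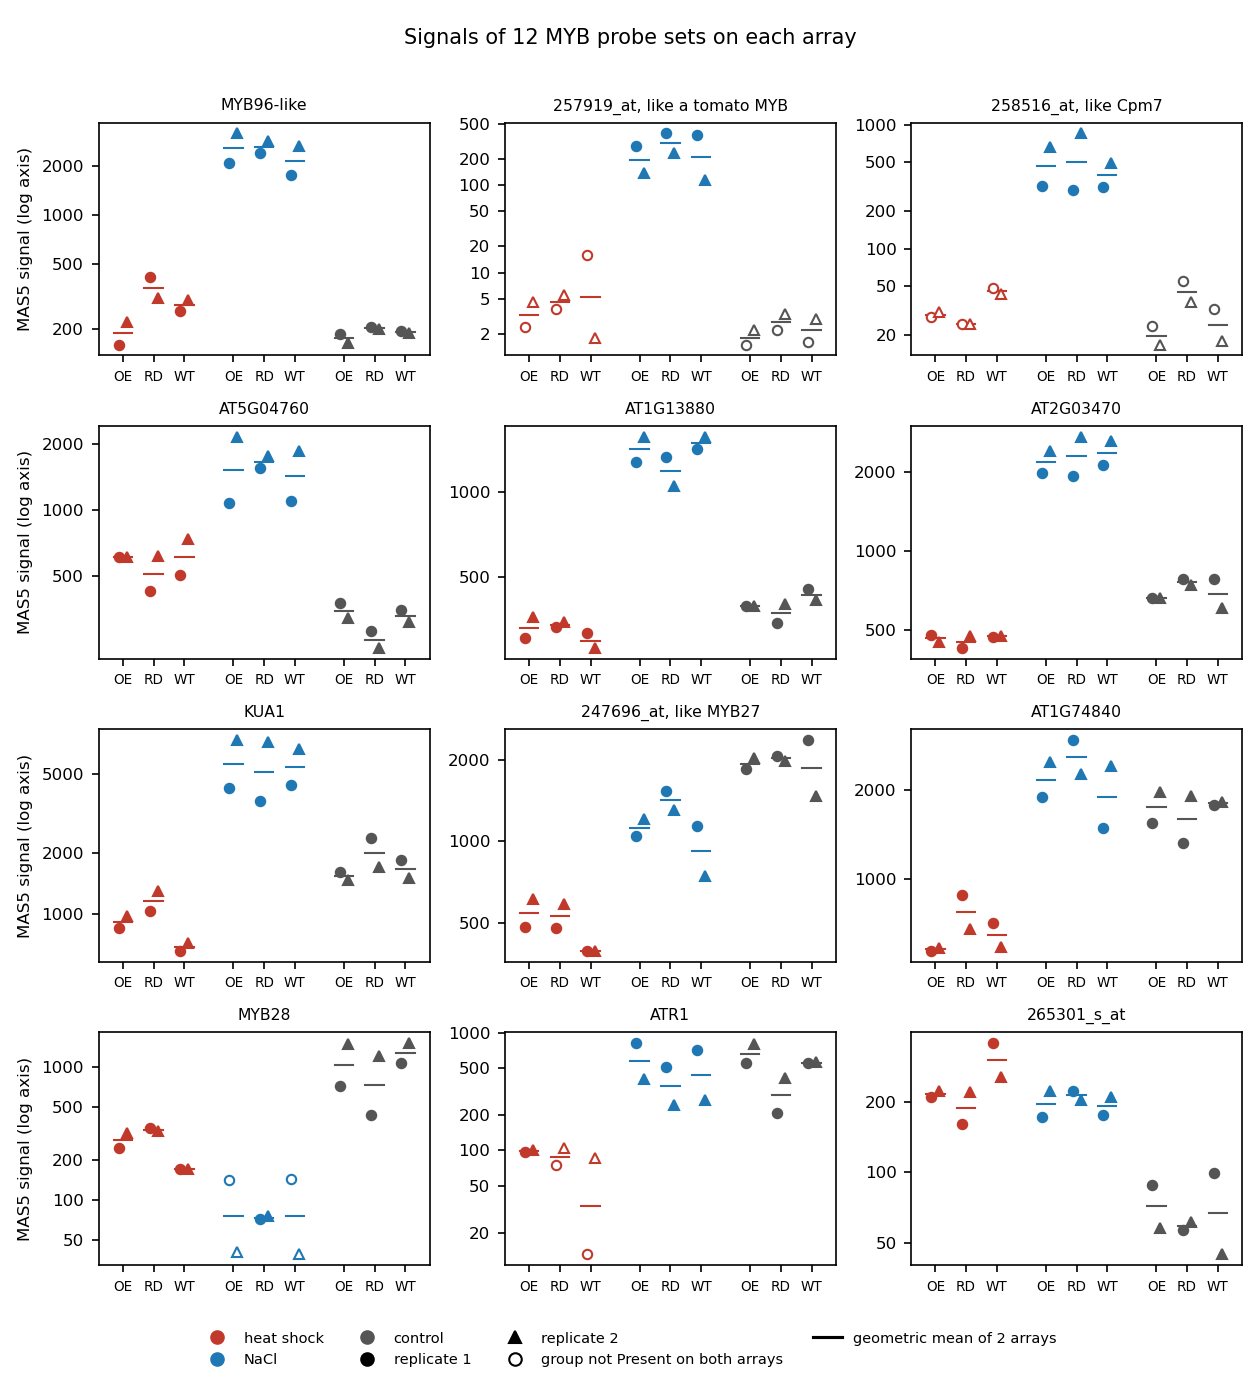
MAS5 signal (log axis) of 12 MYB probe sets on each of the 18 arrays, by treatment and genotype; circles are replicate 1, triangles replicate 2, open symbols mark groups not Present on both arrays, and lines are geometric means of 2 arrays. The top 7 panels show NaCl arrays above all control arrays; 247696_at and AT1G74840 are low under heat shock, MYB28 under NaCl and ATR1 under heat shock.

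Several members at moderate to high signals rose in every genotype. AT1G13880 had 1279.5 and 1573 in OE, 1336 and 1052 in RD and 1420.1 and 1576 in WT under NaCl, against 395 and 395 in OE, 343 and 401 in RD and 452 and 413 in WT under control. The log2 difference was 1.84 ± 0.21 (adjusted p = 4.27e-05) in OE, 1.68 ± 0.21 (8.36e-05) in RD and 1.79 ± 0.21 (5.24e-05) in WT. AT2G03470 had 1989.5 and 2412 in OE, 1925 and 2726 in RD and 2134 and 2625 in WT under NaCl, against 664 and 662 in OE, 785 and 742 in RD and 781 and 608 in WT under control. It differed by 1.72 ± 0.22 (adjusted p = 1.26e-04) in OE, 1.59 ± 0.22 (2.01e-04) in RD and 1.78 ± 0.22 (9.03e-05) in WT. In both, every NaCl array lay above every control array. AT5G04760, described as like the tomato I-box binding factor LeMYBI, had 1079 and 2171 in OE, 1567 and 1777 in RD and 1100.2 and 1860.4 in WT under NaCl, against 375 and 322 in OE, 279.6 and 234 in RD and 349 and 308 in WT under control. The differences were 2.14 ± 0.34 (adjusted p = 6.07e-04) in OE, 2.71 ± 0.34 (8.70e-05) in RD and 2.13 ± 0.34 (5.54e-04) in WT. KUA1 (AT5G47390), known for a role in leaf cell expansion, had 4257 and 7378 in OE, 3646 and 7194 in RD and 4408 and 6610.0 in WT under NaCl, against 1613 and 1469.7 in OE, 2388 and 1703 in RD and 1852 and 1509.6 in WT under control. It rose by 1.86 ± 0.34 (adjusted p = 0.00162) in OE, 1.34 ± 0.34 (0.00912) in RD and 1.69 ± 0.34 (0.00253) in WT. Its NaCl and control arrays did not overlap, and its second NaCl replicate was the higher in each genotype. AT3G16350, described as like the potato protein MybSt1, rose by 1.53 ± 0.33 (adjusted p = 0.00463) in OE, 1.23 ± 0.33 (0.0131) in RD and 0.95 ± 0.33 (0.0443) in WT. AT5G52660 rose by 1.07 ± 0.25 (adjusted p = 0.0067) in OE, 1.07 ± 0.25 (0.00534) in RD and 1.14 ± 0.25 (0.00404) in WT. The 259007_at probe set, described as like a Xenopus MYB, rose by 1.00 ± 0.29 (adjusted p = 0.0201) in OE, 1.00 ± 0.29 (0.0168) in RD and 1.23 ± 0.29 (0.00589) in WT.

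The other 2 of the 12 that rose in all genotypes were 265301_s_at, whose text says only MYB family, and 260237_at, likened to a rice MYB. The 265301_s_at probe set had 172 and 222 in OE, 222 and 204 in RD and 176 and 209.9 in WT under NaCl, against 88.4 and 57.9 in OE, 56.9 and 61.4 in RD and 99.6 and 44.6 in WT under control. It differed by 1.45 ± 0.36 (adjusted p = 0.0101) in OE, 1.85 ± 0.36 (0.00194) in RD and 1.53 ± 0.36 (0.00651) in WT. Its NaCl arrays lay above all control arrays. The suffix of its name marks probes that match more than a single transcript, so the signal may be shared between genes. The 260237_at probe set differed by 2.29 ± 0.56 (adjusted p = 0.00877) in OE, 1.57 ± 0.56 (0.0456) in RD and 2.12 ± 0.56 (0.0115) in WT, and its call was lost in OE without OE control 1 or OE NaCl 1 (adjusted p 0.0512 to 0.06) and in WT without WT NaCl 1 or WT control 2 (adjusted p 0.104 to 0.105). Without WT NaCl 1 its log2 difference in WT was 1.20, against 2.12 with all arrays. The R2R3 member 252193_at rose in OE and WT, by 1.95 ± 0.50 (adjusted p = 0.0114) in OE and 1.85 ± 0.50 (adjusted p = 0.0132) in WT, and differed by 1.27 ± 0.50 (adjusted p = 0.0661) in RD. Its call was lost in OE without OE control 2 or OE NaCl 2 (adjusted p 0.0961 to 0.154) and in WT without WT control 1, WT control 2 or WT NaCl 2 (adjusted p 0.052 to 0.156). Without WT NaCl 2 its difference in WT was 1.22, and without OE NaCl 2 that in OE was 1.17.

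Some probe sets were called in RD and not in every other genotype. M4 (254413_at) had 153 and 573 in OE, 377 and 231 in RD and 43.2 and 323 in WT under NaCl, against 26.0 and 50.5 in OE, 37.8 and 21.0 in RD and 26.9 and 28.6 in WT under control. It was called in OE and RD and just missed the threshold in WT, at 3.03 ± 0.76 (adjusted p = 0.0105) in OE, 3.39 ± 0.76 (0.00454) in RD and 2.09 ± 0.76 (0.052) in WT. The OE call was lost without OE control 1 or OE NaCl 2 (adjusted p 0.0874 to 0.133). Its kin described as like cM4 (255250_at) differed by 1.36 ± 0.56 (adjusted p = 0.0864) in OE, 3.12 ± 0.56 (0.00106) in RD and 1.32 ± 0.56 (0.0874) in WT. The probe set like snapdragon MYB305 (257163_at), a flower regulator in that species, was at least 5.98-fold higher in RD (adjusted p = 0.00375), and differed by -0.24 ± 0.81 (adjusted p = 0.857) in OE and 0.88 ± 0.81 (adjusted p = 0.441) in WT. With 16 added to each signal its log2 difference in RD was 1.97, against 3.75 without. RD heat and RD NaCl were its only groups with both arrays Present. Its entry into the test thus depended on the same high RD signals. For 248203_at the RD response was at least 5.16-fold (adjusted p = 0.0182), a call lost without RD control 1, RD NaCl 1 or RD NaCl 2. Its log2 difference was 1.56 without RD control 1 and 1.83 with 16 added to each signal, against 2.79. The log2 difference of 260784_at was 2.08 ± 0.50 (adjusted p = 0.00692) in RD and 1.52 ± 0.50 (adjusted p = 0.0347) in WT. The RD call of 260784_at was lost without RD control 1 or RD NaCl 2 (adjusted p 0.0595 to 0.0799). None of these NaCl responses differed between RD and WT or between OE and WT in the test of that difference, whose lowest adjusted p among the 106 was 1 for both. The probe set like human A-myb (245847_at), related to the animal cell cycle regulators, was at least 3.12-fold higher in RD (adjusted p = 0.00676) and 2.89-fold in WT (0.0104), with 1 Present array in each. Its WT call was lost without WT control 2 or WT NaCl 2 (adjusted p 0.0532 to 0.0887).

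MYB28 fell furthest among members well above background. It is the main activator of aliphatic glucosinolate synthesis, the mustard oil precursors made from methionine. Its signals were 140.0 and 40.2 in OE, 71.9 and 74.8 in RD and 144 and 38.8 in WT under NaCl, against 709 and 1474 in OE, 434 and 1208 in RD and 1059 and 1504 in WT under control. No NaCl array reached the lowest control array. The log2 difference was -3.77 ± 0.65 (adjusted p = 0.00101) in OE, -3.30 ± 0.65 (0.00194) in RD and -4.08 ± 0.65 (5.15e-04) in WT, and no alternative ended these calls. Of 11 genes of that pathway on a list, 3 were found and tested, and of these 2 were called lower in OE, none in RD and 2 in WT, with none higher. CYP83A1, a cytochrome of core synthesis, had 668 and 262 in OE, 759 and 711 in RD and 915 and 109 in WT under NaCl, against 1855 and 3175 in OE, 2412 and 3399.6 in RD and 2341 and 2697 in WT under control. It differed by -2.54 ± 0.73 (adjusted p = 0.0202) in OE, -1.96 ± 0.73 (0.0535) in RD and -2.99 ± 0.73 (0.00757) in WT. BCAT4, which starts methionine chain elongation, differed by -1.60 ± 0.65 (adjusted p = 0.0842) in OE, -1.33 ± 0.65 (0.135) in RD and -2.26 ± 0.65 (0.0184) in WT. The glucosyltransferase UGT74C1 differed by -1.24 ± 0.41 (adjusted p = 0.0401) in OE, -0.95 ± 0.41 (0.0974) in RD and -0.97 ± 0.41 (0.0931) in WT. ATR1 (also MYB34), the indolic counterpart of MYB28, did not follow it, with 816 and 400.0 in OE, 508 and 241 in RD and 716 and 268 in WT under NaCl, against 552 and 797 in OE, 209 and 408 in RD and 552 and 557 in WT under control. The differences were -0.21 ± 0.71 (adjusted p = 0.852) in OE, 0.26 ± 0.71 (0.809) in RD and -0.34 ± 0.71 (0.749) in WT. The single indolic gene found of 7 on a list, UGT74B1, was not called in any of the 3.

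The other 2 members that fell in all genotypes were AT2G38090 and 252340_at. AT2G38090 had 64.9 and 51.1 in OE, 28.0 and 31.0 in RD and 62.1 and 30.1 in WT under NaCl, against 130.0 and 228 in OE, 124 and 173 in RD and 174 and 348 in WT under control. It differed by -1.58 ± 0.43 (adjusted p = 0.0164) in OE, -2.32 ± 0.43 (0.00148) in RD and -2.51 ± 0.43 (9.63e-04) in WT. Its NaCl arrays lay below all control arrays, and its OE call was lost without OE control 2 or OE NaCl 2 (adjusted p 0.11 to 0.162). The 252340_at probe set was Present on all 6 control arrays and on no NaCl array, and was at least 3.95-fold lower in OE (adjusted p = 0.00346), 3.3-fold in RD (0.00625) and 4.47-fold in WT (0.00171). Its call was lost in OE without OE NaCl 2 (adjusted p = 0.0517) and in RD without RD NaCl 2 (adjusted p = 0.0593).

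Among the epidermal regulators, GL1, which starts trichomes, was Present on no NaCl array. It had 26.0 and 15.1 in OE, 21.1 and 6.1 in RD and 9.4 and 10.4 in WT under NaCl, against 64.7 and 33.3 in OE, 49.2 and 54.1 in RD and 50.2 and 34.0 in WT under control. It was at least 4.22-fold lower in RD (adjusted p = 0.0257) and 4.18-fold lower in WT (0.0341), and differed by -1.23 ± 0.68 (adjusted p = 0.2) in OE. These calls were lost in RD without RD control 1, RD control 2 or RD NaCl 2 (adjusted p 0.0811 to 0.234) and in WT without WT control 1, WT NaCl 1, WT control 2 or WT NaCl 2 (adjusted p 0.0843 to 0.172). Without RD NaCl 2 the log2 difference in RD was -1.29, against -2.19. With 16 added to each signal it was -1.24 in RD, and -1.15 in WT, against -2.06 in WT without. OE control and WT control were the only groups with both arrays Present for GL1. Its entry into the test thus depended on the same high control signals. WER, which sets the hairless cell fate in the root, was also Present on no NaCl array, with 26.7 and 2.6 in OE, 12.7 and 2 in RD and 20.7 and 1.6 in WT against 47.5 and 53.8 in OE, 25.1 and 82.2 in RD and 40.1 and 66.5 in WT under control. It was not called, at -2.60 ± 1.22 (adjusted p = 0.133) in OE, -3.17 ± 1.22 (0.0619) in RD and -3.17 ± 1.22 (0.0645) in WT, and its signals on the NaCl arrays lay near background. The CPC-like probe set (257490_x_at) and TRY (AT5G53200) were not called either. GL2, a homeodomain gene downstream of these proteins and the 1 gene found of 3 on a list, differed by -0.72 ± 0.29 (adjusted p = 0.0846) in OE, -1.24 ± 0.29 (0.00604) in RD and -0.92 ± 0.29 (0.0283) in WT. The 2 root markers moved with these genes: EXPA7 differed by -1.67 ± 0.68 (adjusted p = 0.0845) in OE, -1.97 ± 0.68 (0.0403) in RD and -3.64 ± 0.68 (0.00156) in WT and SHR by -3.45 ± 0.74 (adjusted p = 0.00437) in OE, -4.69 ± 0.74 (4.70e-04) in RD and -3.49 ± 0.74 (0.00349) in WT. Their part in the values of WER, GL1 and GL2 was not tested.

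Further falls were called in a single genotype, or in RD and WT. In WT, MYB27 was at least 2.61-fold lower (adjusted p = 0.00416) with signals of 1.4 and 0.4 under NaCl, against 19.2 and 22.9 under control, all near background; with 16 added to each signal its log2 difference was -1.13, against -4.81 without. For 255903_at neither group was Present, so no fold is given. MYB92, known for suberin synthesis, fell by 1.08 ± 0.33 (adjusted p = 0.0238) on the log2 scale, a call lost without WT control 1, WT control 2 or WT NaCl 2 (adjusted p 0.0766 to 0.183). The probe set like Xenopus myb1 (261491_at) differed by -1.55 ± 0.49 (adjusted p = 0.03), lost without WT control 1, WT NaCl 1 or WT control 2 (adjusted p 0.102 to 0.138); 260664_at by -1.97 ± 0.65 (adjusted p = 0.0339), lost without WT control 1, WT NaCl 1 or WT control 2 (adjusted p 0.106 to 0.291); and 245126_at was at least 2.95-fold lower (adjusted p = 0.022), lost without WT NaCl 1 or WT control 2 (adjusted p 0.154 to 0.156). Without WT NaCl 1 the difference of 260664_at was -0.88, without WT NaCl 2 it was -3.05, and that of 245126_at without WT NaCl 1 was -0.99. In RD, 250167_at differed by -1.81 ± 0.35 (adjusted p = 0.0018) and 259281_at, Present on no NaCl array of RD, was at least 2.65-fold lower (adjusted p = 0.00759), a call lost without RD control 1 or RD NaCl 1 (adjusted p 0.0561 to 0.0567). The probe set like parsley MYB1 (252223_at) differed in RD by -1.16 ± 0.37 (adjusted p = 0.0293), lost without RD NaCl 1 or RD control 2 (adjusted p 0.189 to 0.265). Without RD NaCl 1 its difference was -0.60. In OE, 256503_at was at least 7.56-fold lower (adjusted p = 0.0333), lost without OE control 1, OE NaCl 1 or OE control 2 (adjusted p 0.0749 to 0.238), and 262406_at at least 3.72-fold (0.0294), lost without OE control 1, OE control 2 or OE NaCl 2 (adjusted p 0.0886 to 0.367). Without OE NaCl 1 the log2 differences were -2.21 for 256503_at and -3.08 for 262406_at, and without OE NaCl 2 that of 262406_at was -0.71. Only control groups had both arrays Present for 256503_at and 262406_at. Their entry into the test thus depended on the same high control signals.

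Heat shock against control asked which MYB genes respond within 1 h at 37 °C. Fewer MYB probe sets changed than under NaCl, and more fell than rose. Called were 3 higher and 12 lower of 106 in OE, 5 and 10 in RD, and 5 and 10 in WT. That is 14.2% of the MYB probe sets in each genotype, against 18.8% of all tested probe sets in OE, 14.8% in RD and 20% in WT, so the MYB share was at or below the background. Over all tested probe sets 6.44% were called higher in OE, 5.41% in RD and 6.7% in WT, and 12.3%, 9.41% and 13.3% lower. The median log2 difference of the MYB probe sets was -0.38 in OE, -0.30 in RD and -0.30 in WT, against -0.29, -0.27 and -0.29 over all tested probe sets. After quantile normalization the split was 6 higher and 9 lower in OE, 7 and 5 in RD, and 9 and 9 in WT. Called in all 3 genotypes were 2 higher and 3 lower MYB probe sets (4.15% and 4.14% of all tested probe sets were). Heat shock and NaCl are set against the same control arrays, so the 2 sets of differences are not independent. The counts dropped in fits with an array fewer, in OE to 7 without OE control 1, 8 without OE control 2 and 8 without OE heat 1. In RD they dropped to 2 without RD control 1, 8 without RD control 2, 7 without RD heat 1 and 4 without RD heat 2, and in WT to 9 without WT control 2. Without WT heat 1, the array of the second series, the WT count was 15.

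**Figure D3:**
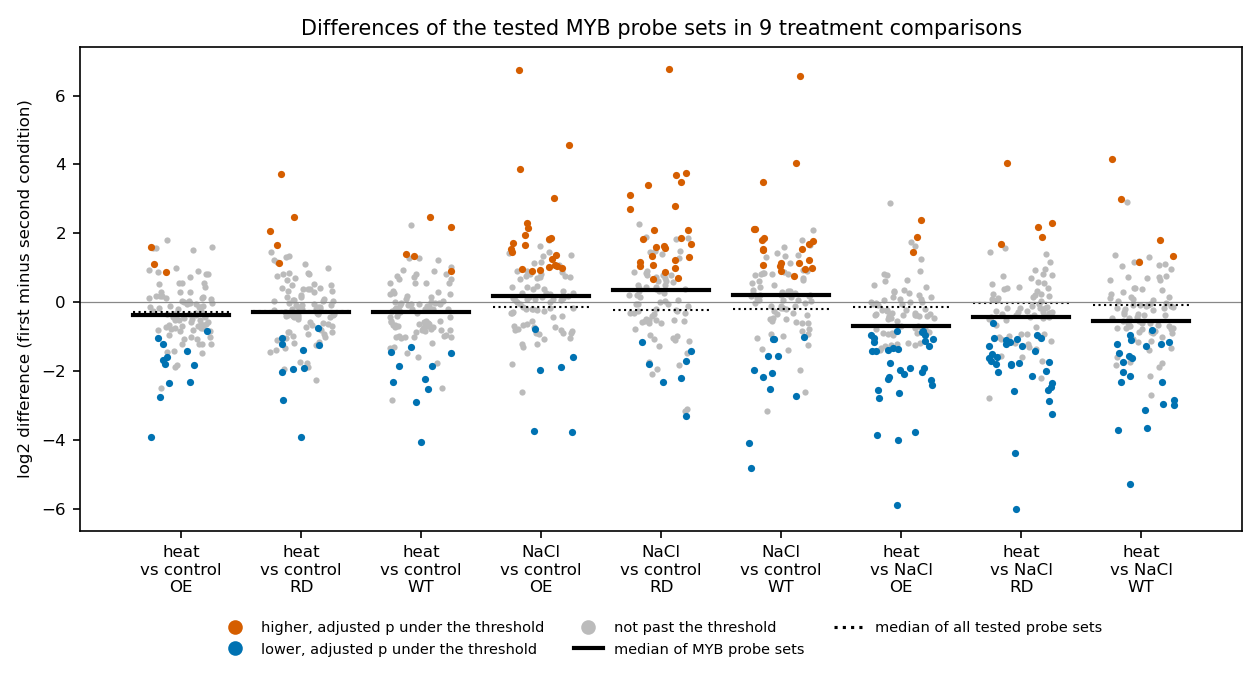
Log2 difference of each of the 106 tested MYB probe sets (points) in 9 treatment comparisons; orange and blue points passed the test as higher or lower, solid lines are the medians of the MYB probe sets and dotted lines those of all tested probe sets. Both medians lie together for heat shock against control, while for NaCl against control the MYB median lies above and for heat shock against NaCl below that of all probe sets.

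The steadiest change under heat shock was the fall of 247696_at. Its text likens it to MYB27, but the transcript record it cites is the one that another probe set's text calls MYB59, so the gene behind it was not settled here. Its signals were 485 and 612 in OE, 478 and 588 in RD and 396 and 395 in WT under heat shock, against 1852 and 2019 in OE, 2067 and 1975 in RD and 2367 and 1465 in WT under control. The highest heat shock array lay far below the lowest control array, and WT had the lowest signals. The log2 difference was -1.83 ± 0.27 (adjusted p = 3.37e-04) in OE, -1.93 ± 0.27 (2.70e-04) in RD and -2.24 ± 0.27 (5.40e-05) in WT. In each genotype its NaCl signals lay between these levels, with 1044 and 1210.0 in OE, 1534 and 1308 in RD and 1143 and 743 in WT. The differences were -0.78 ± 0.27 (adjusted p = 0.0435) in OE, -0.51 ± 0.27 (0.158) in RD and -1.01 ± 0.27 (0.0116) in WT. The OE call was lost without OE control 1, OE NaCl 1, OE control 2 or OE NaCl 2 (adjusted p 0.103 to 0.19). AT1G74840 fell too, with 571 and 586 in OE, 883 and 680.3 in RD and 712 and 588 in WT under heat shock, against 1548 and 1969 in OE, 1329 and 1904 in RD and 1782 and 1818 in WT under control. The differences were -1.59 ± 0.28 (adjusted p = 0.00149) in OE, -1.04 ± 0.28 (0.0239) in RD and -1.48 ± 0.28 (0.00229) in WT. Its heat shock arrays all lay below its control arrays, and its RD call was lost without RD heat 1, RD control 2 or RD heat 2 (adjusted p 0.0579 to 0.171). The 259281_at probe set, likened to a petunia MYB, differed by -1.43 ± 0.34 (adjusted p = 0.0114) in OE, -1.38 ± 0.34 (0.0164) in RD and -1.86 ± 0.34 (0.00196) in WT. Its call was lost in OE without OE control 1 or OE heat 1 (adjusted p 0.0917 to 0.114) and in RD without RD control 1, RD heat 1 or RD heat 2 (adjusted p 0.0643 to 0.118).

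Both glucosinolate regulators fell in WT under heat shock. ATR1 had 96.1 and 100.2 in OE, 74.4 and 104 in RD and 13.1 and 85.7 in WT under heat shock, against 552 and 797 in OE, 209 and 408 in RD and 552 and 557 in WT under control. All heat shock arrays lay below all control arrays, and WT heat 1 was the lowest. It was at least 16.5-fold lower in WT (adjusted p = 0.00136), where neither heat shock array was Present; without WT heat 1 the log2 difference was -2.69, against -4.05 with it. In OE it differed by -2.76 ± 0.71 (adjusted p = 0.0162), lost without OE control 1, OE heat 1, OE control 2 or OE heat 2 (adjusted p 0.0583 to 0.107), and in RD by -1.73 ± 0.71 (adjusted p = 0.121). MYB28 had 245 and 317 in OE, 343 and 326 in RD and 171 and 171 in WT under heat shock, and differed by -1.87 ± 0.65 (adjusted p = 0.058) in OE, -1.11 ± 0.65 (0.272) in RD and -2.89 ± 0.65 (0.00667) in WT. The WT call was lost without WT control 2 (adjusted p = 0.0617). Its heat shock arrays lay below all control arrays in each genotype. The heat shock response of ATR1 in RD minus that in WT was 2.32 ± 1.01, which did not pass the test (adjusted p = 0.77). Of the aliphatic pathway, CYP83A1 was the 1 gene called, in WT, at -2.80 ± 0.73 (adjusted p = 0.0151).

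A probe set likened to a MYB-related factor 24 (259751_at) had the largest fall in OE. Its signals were 203 and 210.0 in OE, 422 and 644 in RD and 1008 and 779 in WT under heat shock, against 5039 and 1899 in OE, 4614 and 3011 in RD and 4270.2 and 2097 in WT under control. Every heat shock array lay below every control array, lowest in OE and highest in WT. The log2 difference was -3.91 ± 0.65 (adjusted p = 0.00101) in OE, -2.84 ± 0.65 (0.0105) in RD and -1.76 ± 0.65 (0.0733) in WT. The RD call was lost without RD control 1 or RD heat 1 (adjusted p 0.0884 to 0.0971). A probe set like tomato THM27 (264210_at), grouped here with MYB4, had 214 and 251 in OE, 295 and 325 in RD and 218 and 429.7 in WT under heat shock, against 1000.4 and 1396 in OE, 921 and 1189 in RD and 702 and 1038 in WT under control, and was called in OE, at -2.35 ± 0.64 (adjusted p = 0.0211) in OE, -1.76 ± 0.64 (0.0819) in RD and -1.48 ± 0.64 (0.121) in WT. Its OE call was lost without OE control 1, OE heat 1, OE control 2 or OE heat 2 (adjusted p 0.0703 to 0.129). Also lower in OE were MYB94, at -1.22 ± 0.25 (adjusted p = 0.00465), 250167_at, at -1.80 ± 0.35 (adjusted p = 0.003), and 249408_at, at -1.68 ± 0.39 (adjusted p = 0.00859). The call of 250167_at was lost without OE control 1 (adjusted p = 0.0538) and that of 249408_at without OE control 1 or OE heat 2 (adjusted p 0.0699 to 0.103). The 252340_at probe set was at least 4.99-fold lower in OE (adjusted p = 0.00154).

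In WT, the falls of 267157_at, -2.51 ± 0.51 (adjusted p = 0.00362), and of 250386_at, at least 4.99-fold (adjusted p = 0.012), were not matched by calls in OE or RD. For 267157_at the signals were 563 and 621 in OE, 418 and 498 in RD and 264 and 182 in WT under heat shock, against 742 and 1489.6 in OE, 935 and 1428 in RD and 998 and 1564 in WT under control, so WT heat arrays were lowest. The call of 250386_at was lost without WT control 2 or WT heat 2 (adjusted p 0.0882 to 0.113), and without WT heat 2 its log2 difference was -1.19. Also lower in WT were KUA1, at -1.30 ± 0.34 (adjusted p = 0.0163), lost without WT control 1, WT heat 1 or WT control 2 (adjusted p 0.0533 to 0.108), AT2G38090, at -1.46 ± 0.43 (adjusted p = 0.0296), lost without WT heat 1, WT control 2 or WT heat 2 (adjusted p 0.06 to 0.273), and the probe set like Xenopus myb1, at -1.85 ± 0.49 (adjusted p = 0.0177), lost without WT control 1, WT heat 1 or WT control 2 (adjusted p 0.0779 to 0.115). Without WT control 2 the difference of AT2G38090 was -0.96. In RD, AT3G16350 differed by -1.25 ± 0.33 (adjusted p = 0.0228), AT2G03470 by -0.76 ± 0.22 (adjusted p = 0.0355) and 267495_at by -1.92 ± 0.48 (adjusted p = 0.0173). The calls were lost without RD control 1, RD heat 1 or RD heat 2 (adjusted p 0.0707 to 0.172), without RD control 1, RD heat 1, RD control 2 or RD heat 2 (adjusted p 0.0954 to 0.198) and without RD control 1, RD control 2 or RD heat 2 (adjusted p 0.0657 to 0.151), in that order. A probe set like a human telomere-binding protein (250914_at) was at least 4.13-fold lower in RD (adjusted p = 0.0228), lost without RD control 1, RD control 2 or RD heat 2 (adjusted p 0.0932 to 0.189), and the one like Xenopus A-myb (253451_at) at least 2.35-fold (0.0481), lost without RD control 1, RD heat 1, RD control 2 or RD heat 2 (adjusted p 0.092 to 0.255). For MYB27 in RD neither group was Present, so no fold is given.

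Few members rose under heat shock. The 265301_s_at probe set had 209.9 and 222 in OE, 160.2 and 219.7 in RD and 356 and 254 in WT under heat shock, against the control signals given above, and every heat shock array was above every control array. It differed by 1.59 ± 0.36 (adjusted p = 0.00775) in OE, 1.67 ± 0.36 (0.00754) in RD and 2.17 ± 0.36 (8.65e-04) in WT. The call was lost in OE without OE control 2 (adjusted p = 0.0874) and in RD without RD control 1 or RD heat 2 (adjusted p 0.0542 to 0.0714). The probe set like barley GAMyb (259283_at), the cereal activator of gibberellin-induced amylase, had 293 and 338 in OE, 244 and 362 in RD and 363 and 327 in WT under heat shock, against 168 and 176 in OE, 132 and 137 in RD and 151 and 125 in WT under control. Its groups did not overlap in any genotype, and the differences were 0.87 ± 0.25 (adjusted p = 0.029) in OE, 1.15 ± 0.25 (0.00876) in RD and 1.33 ± 0.25 (0.00253) in WT. The call was lost in OE without OE control 1, OE heat 1, OE control 2 or OE heat 2 (adjusted p 0.0812 to 0.147) and in RD without RD control 1 or RD heat 2 (adjusted p 0.0573 to 0.0988). Under NaCl the same probe set differed by 0.43 ± 0.25 (adjusted p = 0.234) in OE, 0.71 ± 0.25 (0.0475) in RD and 0.90 ± 0.25 (0.0167) in WT. AT1G58220 rose in OE and WT, by 1.11 ± 0.25 (adjusted p = 0.00787) in OE and 0.89 ± 0.25 (adjusted p = 0.0236) in WT, and differed by 0.32 ± 0.25 (adjusted p = 0.426) in RD. Its call was lost in OE without OE heat 1 or OE control 2 (adjusted p 0.0628 to 0.0783) and in WT without WT control 1 or WT heat 1 (adjusted p 0.133 to 0.181).

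The R2R3 member 252193_at rose in RD and WT. Its signals were 479 and 489 in OE, 2658 and 1589 in RD and 1104 and 2263 in WT under heat shock, against 402 and 274 in OE, 540.2 and 447 in RD and 298 and 271 in WT under control. The OE heat arrays lay well below those of RD and WT. The differences were 0.54 ± 0.50 (adjusted p = 0.489) in OE, 2.06 ± 0.50 (0.0136) in RD and 2.48 ± 0.50 (0.00333) in WT. The RD call was lost without RD control 1, RD heat 1 or RD control 2 (adjusted p 0.0568 to 0.135). The heat shock response of OE minus that of WT was -1.93 ± 0.70 for this probe set, short of the threshold (adjusted p = 0.779). In WT, 260134_at rose by 1.41 ± 0.39 (adjusted p = 0.0216), lost without WT control 2 or WT heat 2 (adjusted p 0.169 to 0.183). In RD, the probe set like snapdragon MYB305 was at least 5.81-fold higher (adjusted p = 0.00808), lost without RD control 1 or RD heat 2 (adjusted p 0.0577 to 0.0955), and M4 differed by 2.47 ± 0.76 (adjusted p = 0.0438), lost without RD control 1, RD heat 1, RD control 2 or RD heat 2 (adjusted p 0.0924 to 0.206). With 16 added to each signal the difference of the first was 1.93, against 3.71 without. Without RD control 1 it was 2.47. The entry of the MYB305-like probe set into the test depended on its high RD heat and RD NaCl signals.

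**Figure D4:**
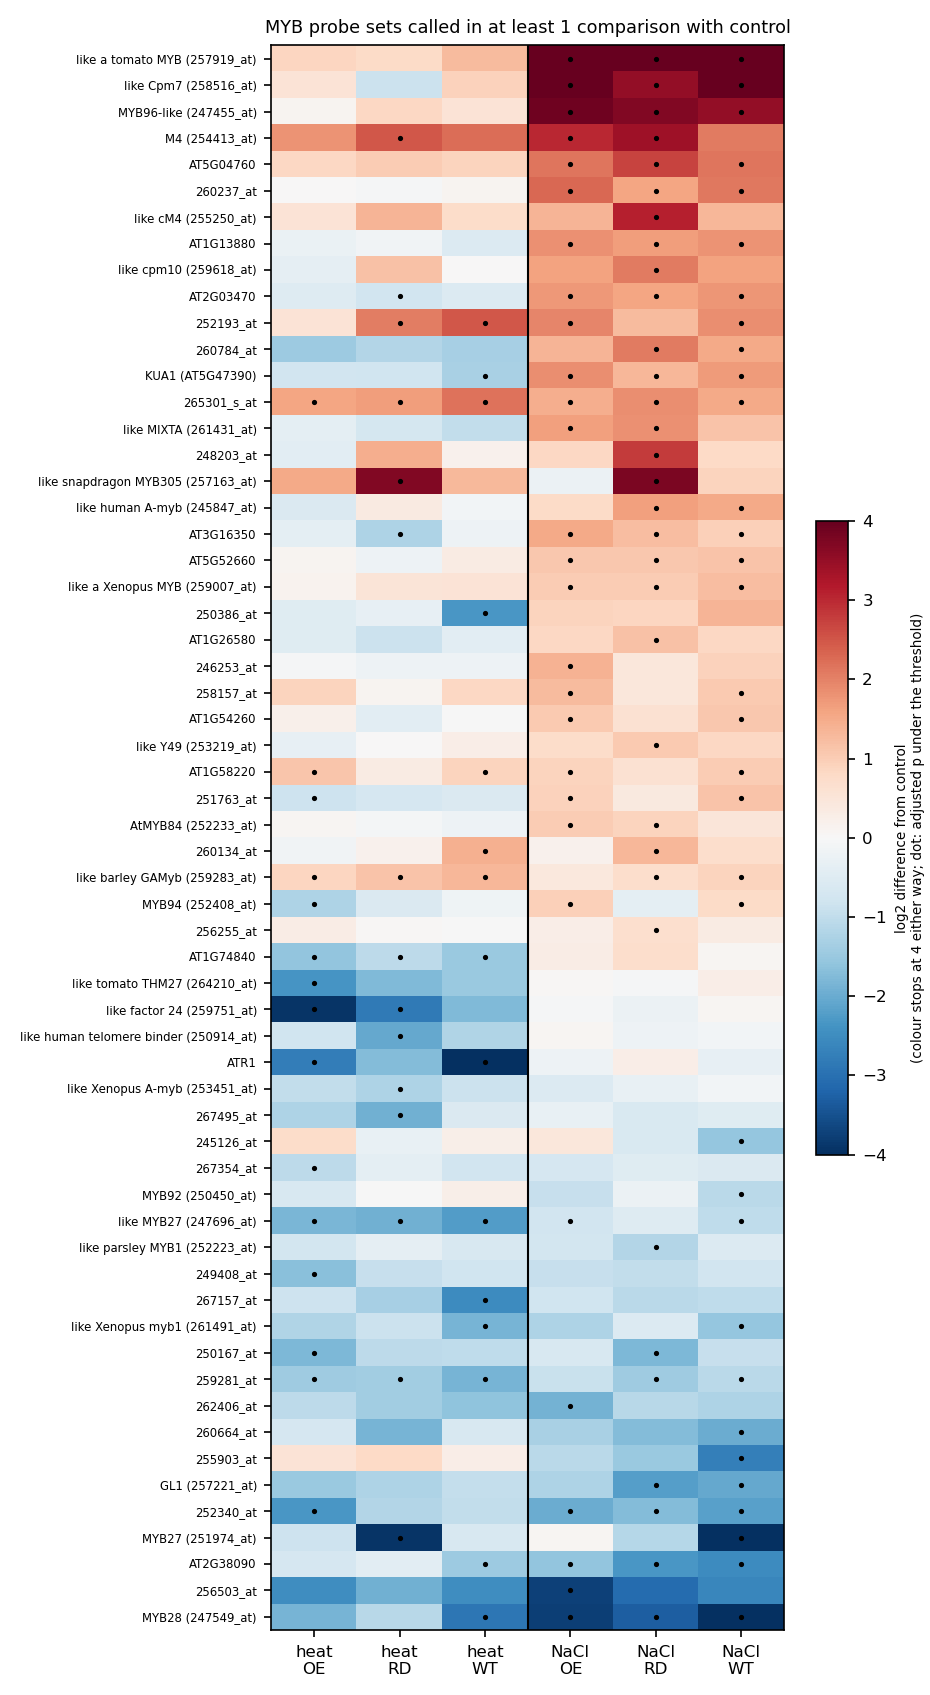
Log2 difference from control of the 60 MYB probe sets called in at least 1 of 6 comparisons with control, under heat shock (left 3 columns) and NaCl (right 3 columns) in OE, RD and WT; dots mark an adjusted p under 0.05 and the colour stops at 4 either way. The rows are ordered by their mean difference under NaCl, from 257919_at at the top to MYB28 at the bottom.

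Heat shock was also set directly against NaCl, to ask where the 2 treatments differ. Heat shock lasted 1 h and NaCl 6 h, so treatment and exposure time cannot be told apart here. MYB probe sets were mostly lower under heat shock: 3 were called higher and 32 lower in OE, 5 and 31 in RD, and 5 and 22 in WT. Those called lower made up 30.2% of the MYB probe sets in OE, 29.2% in RD and 20.8% in WT, against 19.7%, 17.9% and 16.4% of all tested probe sets. Those called higher made up 2.83%, 4.72% and 4.72%, against 13.9%, 16.3% and 11.7% of all. In either direction 33.6%, 34.2% and 28.1% of all tested probe sets were called. The median log2 difference was -0.69 in OE, -0.44 in RD and -0.55 in WT, against -0.13, -0.03 and -0.07 over all. These arrays also enter the comparisons with control. The counts dropped in OE to 18 without OE heat 1, 22 without OE heat 2 and 19 without OE NaCl 2, and in RD to 22 without RD heat 1 and 23 without RD heat 2, against 35 in OE and 36 in RD with all arrays. Called lower under heat shock in all 3 genotypes were 19 MYB probe sets, or 17.9% of them, against 10.4% of all tested probe sets, and higher in all 3 were none, against 7.53%.

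KUA1 showed the difference at high signal. It differed between heat shock and NaCl by -2.63 ± 0.34 (adjusted p = 8.13e-05) in OE, -2.14 ± 0.34 (3.95e-04) in RD and -2.99 ± 0.34 (3.84e-05) in WT, with heat shock arrays at 844 and 973 in OE, 1037 and 1296 in RD and 649.6 and 714 in WT, below all control arrays in each genotype, and NaCl arrays above them. AT1G13880 differed by -2.10 ± 0.21 (adjusted p = 1.14e-05) in OE, -1.81 ± 0.21 (3.70e-05) in RD and -2.33 ± 0.21 (5.10e-06) in WT. AT2G03470 differed by -2.23 ± 0.22 (adjusted p = 1.17e-05) in OE, -2.34 ± 0.22 (6.38e-06) in RD and -2.32 ± 0.22 (9.08e-06) in WT. The MYB96-like probe set differed by -3.78 ± 0.28 (adjusted p = 1.12e-06) in OE, -2.87 ± 0.28 (7.61e-06) in RD and -2.96 ± 0.28 (7.79e-06) in WT. These 4 probe sets were lower under heat shock in every genotype. AT1G26580, whose text likens it to the same record as AT1G13880, differed by -1.28 ± 0.32 (adjusted p = 0.00792) in OE, -2.02 ± 0.32 (4.10e-04) in RD and -1.26 ± 0.32 (0.0105) in WT. The 260784_at probe set differed by -2.79 ± 0.50 (adjusted p = 9.62e-04) in OE, -3.24 ± 0.50 (3.28e-04) in RD and -2.84 ± 0.50 (0.00104) in WT, with 56.0 and 34.6 in OE, 60.6 and 45.7 in RD and 52.5 and 44.8 in WT under heat shock against 208 and 448 in OE, 359.9 and 686 in RD and 206 and 585 in WT under NaCl, and every heat shock array lay below every NaCl array. The like-MIXTA probe set differed by -2.02 ± 0.44 (adjusted p = 0.0036) in OE, -2.54 ± 0.44 (7.79e-04) in RD and -2.14 ± 0.44 (0.00307) in WT.

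The 2 probe sets Present on NaCl arrays alone gave bounds here as well. The tomato MYB-like 257919_at was at least 17.2-fold lower under heat shock in OE (adjusted p = 6.58e-04), 34.4-fold in RD (5.70e-04) and 17.9-fold in WT (0.00169). The Cpm7-like probe set was at least 15.9-fold lower in OE (adjusted p = 6.68e-05), 20.7-fold in RD (3.70e-05) and 8.73-fold in WT (5.47e-04). Among the largest differences of 1 genotype were those of 250386_at in WT, at least 12.7-fold lower (adjusted p = 4.38e-04), and of ATR1 in WT, at least 13.1-fold lower (0.00184), where without WT heat 1 the log2 difference was -2.35, against -3.71. The factor 24-like 259751_at differed by -3.85 ± 0.65 (adjusted p = 6.23e-04) in OE, -2.59 ± 0.65 (0.00771) in RD and -1.83 ± 0.65 (0.0502) in WT. The THM27-like probe set differed in OE by -2.41 ± 0.64 (adjusted p = 0.0108), lost without OE heat 1 or OE NaCl 2 (adjusted p 0.0679 to 0.143), and by -1.43 without OE NaCl 2. AT3G16350 differed by -1.92 ± 0.33 (adjusted p = 7.42e-04) in OE, -2.47 ± 0.33 (1.11e-04) in RD and -1.15 ± 0.33 (0.0198) in WT. The 260237_at probe set differed in OE by -2.26 ± 0.56 (adjusted p = 0.00718), a call lost without OE NaCl 1 or OE heat 2.

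Higher under heat shock than under NaCl were few members, and most lay near background on the NaCl arrays. ATMYB4 (246844_at) had 298 and 333 in OE, 101 and 122 in RD and 64.9 and 145 in WT under heat shock, against 89.4 and 40.3 in OE, 31.3 and 37.2 in RD and 79.3 and 17.6 in WT under NaCl. The OE heat arrays stood above all other heat shock and NaCl arrays. It differed by 2.39 ± 0.58 (adjusted p = 0.00672) in OE and was at least 3.26-fold higher in RD (adjusted p = 0.0362), and in WT it differed by 1.38 ± 0.58 (adjusted p = 0.0923). The calls were lost in OE without OE NaCl 2 (adjusted p = 0.0773) and in RD without RD heat 1, RD NaCl 1, RD heat 2 or RD NaCl 2 (adjusted p 0.0949 to 0.146). WER was at least 8.12-fold higher in RD (adjusted p = 0.0206), lost without RD heat 1, RD heat 2 or RD NaCl 2 (adjusted p 0.068 to 0.19), while the summed root markers lay at 230 to 259 on the RD heat arrays against 23.1 to 56.7 on the RD NaCl arrays; their part in this was not tested. MYB28 differed by 1.89 ± 0.65 (adjusted p = 0.0362) in OE and 2.19 ± 0.65 (adjusted p = 0.018) in RD; the calls were lost in OE without OE heat 1, OE heat 2 or OE NaCl 2 (adjusted p 0.0957 to 0.337) and in RD without RD heat 1, RD NaCl 1, RD heat 2 or RD NaCl 2 (adjusted p 0.0684 to 0.0867), and without OE NaCl 2 the OE difference was 0.99. AT2G38090 differed by 1.90 ± 0.43 (adjusted p = 0.00444) in RD, and 248596_at was at least 2.77-fold higher in OE (adjusted p = 0.0487), lost without OE heat 1, OE NaCl 1, OE heat 2 or OE NaCl 2 (adjusted p 0.0635 to 0.233). MYB27 and 252340_at in WT and 255903_at in RD were also called higher, but neither group was Present for them, so no fold is given. In WT, 255903_at was at least 5.98-fold higher (adjusted p = 0.00744), with 1 Present heat shock array and signals of 46.2 and 62.6 under heat shock against 4.8 and 9.4 under NaCl. Also in WT, MYB92 differed by 1.33 ± 0.33 (adjusted p = 0.00888), lost without WT NaCl 2 (adjusted p = 0.0799), and 245126_at was at least 3.48-fold higher (adjusted p = 0.0112), lost without WT NaCl 1 (adjusted p = 0.0872).

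MYB4 represses phenylpropanoid genes, among them C4H. Of the 5 probe sets in the MYB4 group, none was called under NaCl in any genotype. MYB4 (252958_at) differed under NaCl by -0.82 ± 0.44 (adjusted p = 0.183) in OE, -0.51 ± 0.44 (0.397) in RD and -0.61 ± 0.44 (0.316) in WT. The probe set named ATMYB4 differed by -0.81 ± 0.58 (adjusted p = 0.33) in OE, -1.28 ± 0.58 (0.109) in RD and -1.36 ± 0.58 (0.0926) in WT. Whether both measure the same gene was not settled here, so ATMYB4 is not read as a further measure of MYB4. Of 16 phenylpropanoid genes on a list, 5 were found and tested, and under NaCl 3 were called lower and none higher in each genotype. These were PAL1, which makes cinnamate from phenylalanine, 4CL1, which activates coumarate, and HCT, which leads to the lignin branch. PAL1 differed by -1.85 ± 0.39 (adjusted p = 0.0041) in OE, -1.60 ± 0.39 (0.00785) in RD and -1.37 ± 0.39 (0.0185) in WT. HCT had 826 and 446 in OE, 894 and 598 in RD and 746 and 432 in WT under NaCl, against 2937 and 3322 in OE, 2004 and 2698 in RD and 2981 and 3394 in WT under control. It differed by -2.36 ± 0.35 (adjusted p = 3.76e-04) in OE, -1.67 ± 0.35 (0.00309) in RD and -2.49 ± 0.35 (2.28e-04) in WT. For 4CL1 the differences were -2.23 ± 0.37 (adjusted p = 7.85e-04) in OE, -1.20 ± 0.37 (0.0236) in RD and -2.39 ± 0.37 (4.17e-04) in WT. C4H was not called, at -0.23 ± 0.42 (adjusted p = 0.732) in OE, 0.50 ± 0.42 (0.391) in RD and -0.05 ± 0.42 (0.938) in WT. Under heat shock HCT was the 1 gene called, lower in WT at -1.58 ± 0.35 (adjusted p = 0.00648).

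R2R3 MYB proteins with TTG1 also switch on flavonoid genes. Of 16 flavonoid genes on a list, 12 were found and 9 tested. Under NaCl 1 was called lower in OE, none in RD and 2 in WT, with none higher. FLS1, the flavonol synthase, had 86.3 and 45.3 in OE, 41.5 and 64.9 in RD and 51.8 and 26.7 in WT under NaCl, against 185 and 159 in OE, 86.0 and 97.4 in RD and 148 and 225 in WT under control. It differed by -1.46 ± 0.42 (adjusted p = 0.0213) in OE, -0.82 ± 0.42 (0.154) in RD and -2.30 ± 0.42 (0.0014) in WT. F3H, which acts a step earlier, differed by -1.68 ± 0.64 (adjusted p = 0.0687) in OE, -0.98 ± 0.64 (0.267) in RD and -1.94 ± 0.64 (0.0357) in WT. Under heat shock FLS1 was called higher in RD, at 1.79 ± 0.42 (adjusted p = 0.0121), while it differed by 0.58 ± 0.42 (adjusted p = 0.369) in OE and -0.74 ± 0.42 (adjusted p = 0.236) in WT. TTG1 was called in none of these comparisons. The flavonoid gene CHS differed between replicates under NaCl, with 960.4 and 106 in OE, 336 and 106 in RD and 998 and 74.7 in WT, and was not called.

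Genotype comparisons asked whether more or less HSFA6b function changes MYB levels. No MYB probe set passed the limma test for OE or RD against WT in any treatment, nor for a difference of a treatment response, 10 comparisons in all, in the fit without blocks. Under heat shock this depended on the fit. Over all tested probe sets the calls were also few, 0.0173% for OE against WT under control, 0.115% under heat shock (0.0633% higher) and 0% under NaCl, and 0.046% (0.0345% lower), 0.207% and 0.437% for RD against WT. For the differences of response they were 0.0115% and 0% for OE under heat shock and NaCl, and 0.00575% and 0.0173% for RD. At an unadjusted p under 0.05 lay 0, 10 and 3 MYB probe sets for OE against WT under control, heat shock and NaCl, and 3, 9 and 7 for RD. That is 0%, 9.43% and 2.83% for OE, against 0.915%, 13.5% and 1.7% of all tested probe sets, and 2.83%, 8.49% and 6.6% for RD, against 3.69%, 13.2% and 6.12%. For the differences of response the numbers were 7 and 2 for OE under heat shock and NaCl, and 6 and 6 for RD. The OE and RD comparisons share the WT arrays. In data simulated for OE against WT under NaCl, the fit called 56 of 100 probe sets changed by a log2 of 2 and 13 of 100 changed by a log2 of 1. The simulated noise was independent between arrays, with the same spread for a probe set in every group. In the real arrays the standard deviation of replicate differences was 0.904 in WT NaCl and 0.5 in OE control. NaCl arrays of the same replicate number also deviated together, so the simulated shares need not hold for the real arrays.

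MYB94 had the lowest p among members for OE under heat shock and for RD under NaCl. Under heat shock its signals were 98.6 and 102 in OE, 139.9 and 154 in RD and 241 and 144 in WT, lowest in OE; the difference of OE from WT was -0.90 ± 0.25 (adjusted p = 0.171). Under NaCl the RD arrays lay below both other genotypes, and the difference of RD from WT was -1.11 ± 0.25 (adjusted p = 0.103). Neither passed the test. Also short of it under heat shock were 252193_at in OE, -1.71 ± 0.50 (adjusted p = 0.182), and the factor 24-like 259751_at in OE, -2.10 ± 0.65 (adjusted p = 0.206). In RD under heat shock, 250386_at had 103 and 100.4 against 42.4 and 8.9 in WT, where neither array was Present (adjusted p = 0.11). The 260134_at probe set had 41.3 and 34.3 in RD, where neither array was Present, against 84.6 and 152 in WT (adjusted p = 0.114). MYB17 differed by 1.48 ± 0.41 (adjusted p = 0.156). Under control the lowest adjusted p among members was 1 for OE and 0.703 for RD, the value of 266469_at, -2.26 ± 0.68. MYB4 was the member with the lowest unadjusted p for OE under control, at 0.93 ± 0.44. MYB27, which had the lowest p for OE under NaCl, was Present on no NaCl array, with 22.3 and 20.8 in OE, 7.5 and 10.2 in RD and 1.4 and 0.4 in WT, so no difference is given. The MYB59-like probe set (252534_at) differed in RD under NaCl by 1.36 ± 0.46 (adjusted p = 0.466). A single array changed some counts from 0: for OE against WT under heat shock 1 MYB probe set was called without WT heat 1 and 2 without WT heat 2. For RD against WT under heat shock 1 was called without WT heat 1 and 1 without WT heat 2, and under NaCl 1 was called without RD NaCl 2.

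WT heat 1 is the only heat shock array with the second array series number, and with that number as a block some members were called under heat shock. For OE against WT this was 252193_at, at -2.35 ± 0.28 (adjusted p = 0.00502), where 0.644% of all tested probe sets were called in that fit, and its heat shock response in OE minus that in WT was -2.57 ± 0.38 (adjusted p = 0.0414), where 0.0288% were. For RD against WT the called members were 250386_at (adjusted p = 0.0181) and 260134_at (adjusted p = 0.0398), where 3% of all were. Under control and NaCl no MYB probe set was called between genotypes in that fit. Arrays of the same replicate number deviated together within NaCl and within control. All 3 pairs of genotypes correlated there, at 0.291 to 0.627 and at 0.3 to 0.4. Within heat shock they did so less, at -0.055 to 0.122. The value of 0.627 belongs to WT NaCl and OE NaCl, whose first replicates share the second array series number. With the replicate number as a block in each treatment, no MYB probe set was called between genotypes under NaCl or control. Under heat shock 2 were called for OE against WT, 259751_at at -2.10 ± 0.26 (adjusted p = 0.00387) and 267157_at at 1.43 ± 0.27 (adjusted p = 0.0238), where 3.31% of all tested probe sets were. For RD against WT 3 were called, KUA1 at 0.77 ± 0.17 (adjusted p = 0.033), MYB17 at 1.48 ± 0.35 (adjusted p = 0.0394) and 250386_at (adjusted p = 0.022), where 4.23% of all were. The 2 kinds of block called different members for OE, and 250386_at was called with both for RD. Both blocks were fitted in all 9 groups, and the cause of these changes was not tested.

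CCA1, a morning gene of the circadian clock, differed widely between the replicates of several groups. Its signals under heat shock were 1779 and 1861 in OE, 1088 and 1227 in RD and 58.9 and 1604 in WT, under NaCl 760.1 and 8181 in OE, 931 and 6258 in RD and 495 and 7955 in WT, and under control 801 and 1068 in OE, 315 and 785 in RD and 466 and 846 in WT. WT heat 1 lay far below all other arrays, and the 3 second replicates under NaCl lay far above all others. The log2 difference between the arrays of a group was 4.77 in WT heat, 4.01 in WT NaCl and 3.43 in OE NaCl, where the median over the tested MYB probe sets was 0.53, 0.63 and 0.49. CCA1 was called in no comparison, with 1.43 ± 1.50 (adjusted p = 0.515) in OE, 2.28 ± 1.50 (0.264) in RD and 1.66 ± 1.50 (0.428) in WT under NaCl. The member 258723_at went the same way, with 80.9 and 655 in OE, 137 and 725 in RD and 46.3 and 662 in WT under NaCl and 8.6 and 184 in WT heat. The factor 24-like 259751_at was also higher on the second than on the first replicate under NaCl, with 1988 and 4474 in OE, 1727 and 5733 in RD and 1796 and 5518 in WT, and lower on the second under control in each genotype.

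Of 10 clock genes on a list, 4 were found and tested. The RNA-binding protein GRP7, an evening output of the clock, went against CCA1: it had 11834 and 431 in OE, 3573 and 475 in RD and 10301 and 278 in WT under NaCl and 31695 and 3685 in WT heat. TOC1, an evening clock gene, had 1077 and 172 in WT heat, against 139.8 and 199.5 in OE heat and 112 and 181 in RD heat. Its NaCl replicates lay closer together, with 741 and 603 in OE, 667 and 527.5 in RD and 976 and 748 in WT. Under NaCl it was called higher in WT, at 1.80 ± 0.58 (adjusted p = 0.0306). GI, another evening gene, had 1146 and 353 in WT heat. ZTL, also on the list, did not show this swing, with 526.5 and 610 in WT heat and 446 and 831 in WT NaCl. Under heat shock it was called higher in OE, at 1.13 ± 0.29 (adjusted p = 0.0173). WT heat 1 thus held the lowest CCA1 signal of all arrays and the highest GRP7, TOC1 and GI signals. Of these arrays WT heat 1, WT NaCl 1 and OE NaCl 1 have the second array series number and RD NaCl 1 has not. The sources used here give no time of day of sampling, and its part in these values was not tested.

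**Figure D5:**
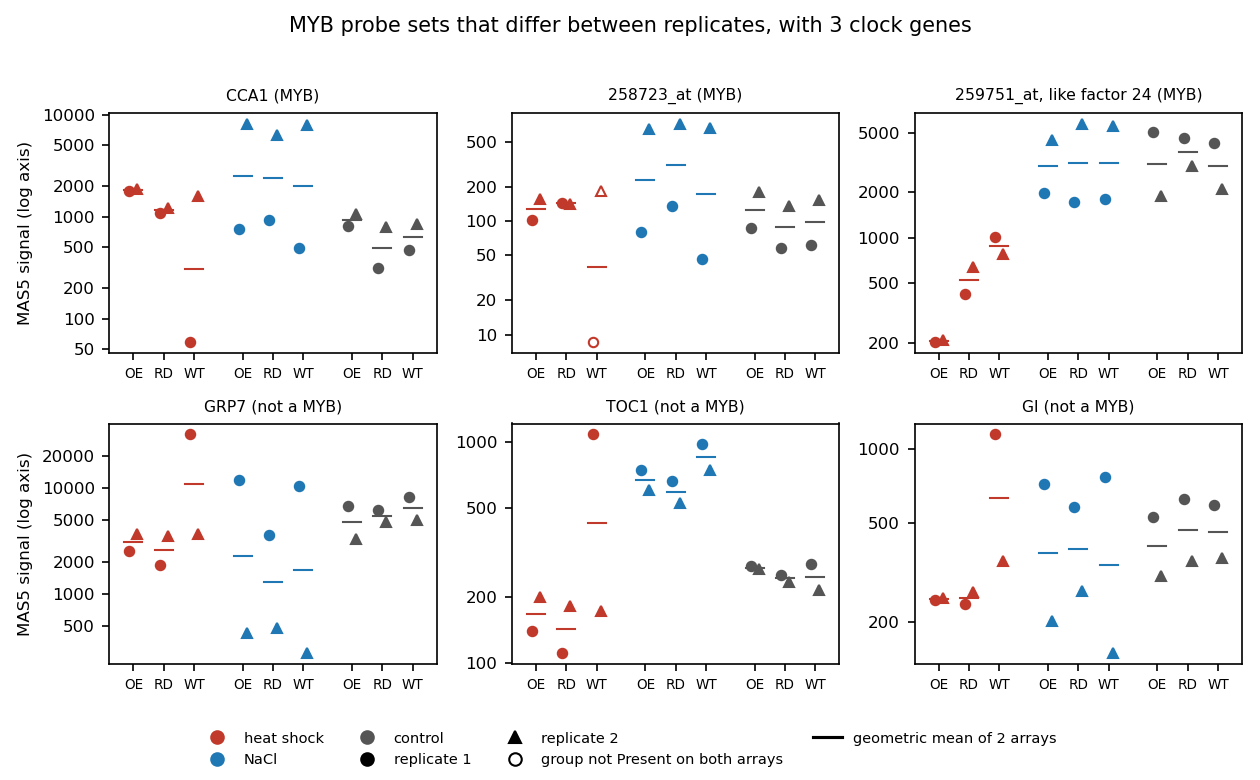
MAS5 signal (log axis) on each array of the MYB probe sets CCA1, 258723_at and 259751_at (top) and of the clock genes GRP7, TOC1 and GI (bottom), with circles for replicate 1, triangles for replicate 2, open symbols for groups not Present on both arrays, and lines for geometric means of 2 arrays. Under NaCl the second replicates are high for CCA1 and low for GRP7, and WT heat 1 is lowest for CCA1 and highest for GRP7, TOC1 and GI.

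Across the 9 comparisons of treatments, 69 of the 106 tested MYB probe sets were called at least once and 37 never, where 65.4% of all tested probe sets were called at least once. The arrays of a group differed by a median absolute log2 of 0.25 to 0.63 over the tested MYB probe sets. AT1G19000, described as like MybSt1, was among the members with high signals in every group, with 2733 and 2223 in OE, 3455 and 3321 in RD and 1775 and 3252 in WT under heat shock, 3238 and 6483 in OE, 6152 and 7245 in RD and 3314 and 6038 in WT under NaCl and 3132 and 3958 in OE, 3562 and 4214 in RD and 3888 and 3885 in WT under control. It was called in none of these comparisons.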

How the data were processed

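RNA of 18 seedling samples in 9 groups of 2 was hybridised to 18 1-colour Affymetrix arrays, 1 per sample. The deposited signal intensity values and Present calls were made by the authors with MAS5, per the submitters' processing notes, with no version given. The 2% trimmed mean of each array lies near 500, so the arrays had been scaled to a shared level, and no further normalization was applied. The detection p-value behind each call was deposited by the authors in the same files. The deposited series value table held the same values and was not used further.

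Signals were floored at 0.1 and taken to log2. limma 3.58.1 (R 4.3.3) was fitted to all arrays with a mean per group and an intensity trend in eBayes, on the 17379 probe sets with 2 Present calls in some group. Benjamini-Hochberg adjustment ran over these probe sets for each comparison separately, at a threshold of 0.05. Values after ± are standard errors of limma's fit, whose spread is shared over the 9 groups (9 residual degrees of freedom). The number of arrays limits the precision. The steps were tested on simulated data. Tables were handled with pandas 2.3.3 and figures drawn with matplotlib 3.10.9 in Python 3.11.15.

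The MYB probe sets, the gene lists and the rule for naming genes were chosen with earlier results of these data known. Named were the called members with the largest differences in each comparison (up to 10 a direction), the 3 lowest p where none was called, and 2 to 4 members of each role group. Gene names came from the files' descriptions or the platform annotation, and 26 of the 163 members had a single gene there. Pathway genes were matched by description or annotation. Deviations from group means of arrays with the same replicate number correlated over 0.1 in 11 of 36 pairs of groups: 3 of 3 within NaCl, 3 of 3 within control, 1 of 3 within heat shock and 4 of 27 between treatments. The numbers thus tie genotypes together within NaCl and control but not treatments. For WT NaCl and OE NaCl, the pair at 0.627, both first replicates also carry the second array series number. Replicate number and array series cannot be told apart for that pair. A block of replicate number within each treatment was added for the genotype comparisons after seeing the data. The alternatives were quantile normalization, no Present filter, 16 added to each signal, no trend, the replicate number or the array series as a block, the first array series alone, and leaving out each array. Sequences were not used here.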

Additional observations from a re-analysis of the deposited data

How the results depend on the processing

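Counts of changed MYB probe sets moved most with the array series and with single arrays. With the array series as a block the heat shock counts against control were 23 in OE, 23 in RD and 24 in WT, and with the first array series alone they were 24, 30 and 24. Under NaCl they were 44 in OE with the series block and 50 in RD with the first series alone. For genotype comparisons under heat shock, the series block gave 1 for OE and 2 for RD against WT, the first series alone 2 and 1, and the series block 1 for the heat shock response of OE against that of WT. The cause was not tested. Fits without 1 array gave 7 to 12 for heat shock in OE, 2 to 8 in RD and 9 to 15 in WT, and 13 to 26 for NaCl in OE, 20 to 26 in RD and 17 to 37 in WT. For heat shock against NaCl they gave 18 to 30 in OE, 22 to 27 in RD and 20 to 38 in WT. For OE against WT under heat shock they gave 0 to 2, and for RD against WT 0 to 1 under heat shock and 0 to 1 under NaCl. Of 139 values of named members none changed sign under the alternatives run, and 112 kept their call under every alternative other than fits without 1 array. In fits without 1 array 71 of the 139 kept it throughout. Quantile normalization, under which the median of all probe sets for heat shock in WT was -0.13, against -0.29 as deposited, ended 12 calls, the first series alone 13, no Present filter 5, 16 added to each signal 4, the series block 4 and no trend 2. Adding 16 shrank differences near background, as for 257919_at under NaCl in OE, at 3.57 against 6.75. The replicate number as a block ended 1 call and gave counts of 19, 20 and 18 under heat shock and 30, 39 and 37 under NaCl in OE, RD and WT; the numbers did not tie arrays together across treatments. The replicate block within each treatment, chosen after seeing the data, called 2 for OE and 3 for RD against WT under heat shock and 0 in the other 8 genotype comparisons. Members not Present have only a bound, and 57 of 163 were not tested.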
